A study of Mus musculus with 2 samples.

Results

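The genes described here are the 4 adaptors that carry signals from Toll-like receptors (Myd88, Tirap, Ticam1 and Ticam2), the 4 kinases of the IRAK family (Irak1, Irak2, Irak3 and Irak4), the kinase-complex adaptor Tab2 and the inhibitor Tollip. They were chosen by gene symbol, and all 10 were found among 55536 annotated genes, of which 22028 are protein-coding. They were measured in mouse bone marrow-derived macrophages of strain C57BL/6J, primary cells that had received lipid A, the TLR4-binding part of bacterial lipopolysaccharide, at 100 ng/ml for 25 min. RNA of the nucleoplasmic fraction was depleted of ribosomal RNA and sequenced as total RNA. The description names a nucleoplasmic fraction, while other labels name the nucleus as the fraction. The 2 libraries form 1 group, made from 500 ng of RNA for replicate 1 and 1 µg for replicate 2 with a size range of 250 to 400, and both name the same donor entry, so the SDs below measure the spread between these libraries. No untreated, whole-cell or later group was analysed here, so every value is a level after lipid A, and no test between conditions could be made. In such a bulk sample, fewer cells of a type and less RNA per cell cannot be told apart.

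Toll-like receptors and interleukin-1 receptors signal through a shared intracellular TIR domain. TLR4 uses Tirap to bring in Myd88, which gathers Irak4, Irak1 and Irak2 into the assembly known as the myddosome, and the ubiquitin ligase Traf6 and the Tab2-bound kinase Tak1 (Map3k7) then lead to NF-kB and MAP kinases. From endosomes, TLR4 uses Ticam2 (TRAM) and Ticam1 (TRIF), which lead to Tbk1 and the interferon regulatory factor Irf3. Irak3 (IRAK-M) and Tollip are known as restraints on the Myd88 branch in macrophages and other cells.

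Summed over annotated genes, the depth came to 13506939 expected counts for replicate 1 and 17932332 for replicate 2, so that 3 counts, the upper limit for a count of 0, correspond to 0.222 and 0.167 CPM, counts scaled to the same library total. Expected counts are reads assigned by an estimate that divides ambiguous reads among transcripts, and TPM divides them by transcript length before scaling each library to the same total. Counts of the libraries were further apart than sampling alone would give (chi-square per degree of freedom of 52.4 over genes), and both were kept as separate samples. The 6 macrophage markers were all detected, with summed levels of 3657 and 3033 TPM in replicates 1 and 2. By gene-table TPM, in the T and NK cell list 0 of 5 markers were detected, in the B cell list 0 of 4, in the mast cell list 0 of 3 and in the fibroblast list 0 of 3. The neutrophil list had 1 of 5, S100a9 at 1.65 ± 0.0990 TPM from 7 and 12 counts in replicates 1 and 2. In the mast cell list, Kit had 92 and 66 counts, at 2.56 and 0.60 TPM, and lay under 1 TPM only in replicate 2. The summed level of each of the lists other than macrophage lay between 0.180 and 2.62 TPM in either library. Cd3e, Ly6g and Fcer1a were listed at 0 counts in both. In the deposited transcript table made without alignment, called alignment-free below, 1 of 5 T and NK cell markers was detected, Cd3d at 8.72 and 1.10 TPM in replicates 1 and 2, against 2 and 1 counts in the gene table, and the B cell, neutrophil, mast cell and fibroblast lists had 0.

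All 10 genes were present in the nucleoplasmic RNA. Each had at least 1 TPM in both libraries, which held for 12507 of 55536 annotated genes (22.5%) and for 9806 of 22028 protein-coding genes (44.5%). In the alignment-free table, 8 of 10 passed that minimum, against 7550 protein-coding genes (34.3%). Tirap and Ticam1 missed it there in replicate 2, at 0.832 and 0.883 TPM. Their median log2(TPM + 1) was 4.04 ± 0.34, beside 0.67 ± 0.22 over all protein-coding genes and 3.40 ± 0.33 over the 9806 detected ones (SD, n = 2 libraries). The genes were thus spread through the range of detected protein-coding genes, and their median lay above that of the detected genes by 0.65 in replicate 1 and 0.64 in replicate 2.

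Irak2 had the highest mean level and Tirap the lowest. Irak2 stood at 40.9 and 50.4 TPM in replicates 1 and 2, above 95.0% of protein-coding genes by its mean. Tab2 followed with 46.4 and 29.2 TPM and Irak1 with 38.1 and 32.3 TPM. These 3 changed places between the libraries, Tab2 being highest in replicate 1 and Irak2 in replicate 2, so their order is not resolved. Myd88 had 26.6 and 23.4 TPM and Tollip 24.4 and 15.4 TPM, in the same order in both libraries but with overlapping ranges. Both lay below Irak1, and the range of Irak1 did not overlap that of Myd88. Irak4 had 12.4 and 10.8 TPM, Irak3 13.9 and 7.31 TPM, and Ticam2 11.9 and 7.42 TPM. The ranges of these 3 overlapped, and all of their values lay below those of Tollip. Ticam1, at 6.16 and 4.75 TPM, lay below them, and Tirap, at 3.42 and 1.53 TPM, below Ticam1, both without overlap. Even Tirap stood above 60.5% of protein-coding genes.

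**Figure D1:**
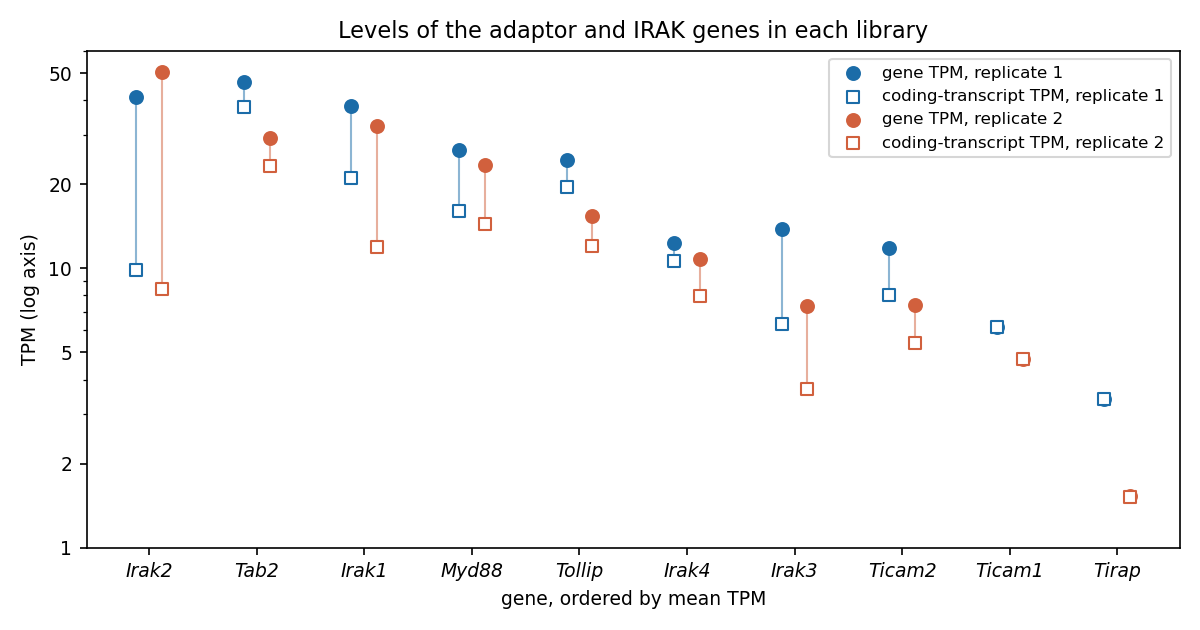
TPM on a log axis for each gene in each library (blue, replicate 1; orange, replicate 2), with filled circles for the whole gene and open squares for the sum over its coding transcripts. The distance between circle and square is widest for Irak2, whose gene level of 40.9 and 50.4 TPM stands above coding levels of 9.89 and 8.46 TPM, and is absent for Ticam1 and close to 0 for Tirap.

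The position of Irak2 depended on which transcripts were counted. Over coding transcripts alone Irak2 had 9.89 and 8.46 TPM and was the 6th of the 10 genes by mean (6th in replicate 1 and 5th in replicate 2), while Tab2 was the highest at 37.9 and 23.3 TPM. By expected counts Irak2 was the 5th in replicate 1 and the 3rd in replicate 2, with 629 and 1155 counts, beside 1980 and 2052 for Tab2, 1251 and 1370 for Irak1, and 967 and 1011 for Tollip. By mean CPM, which corrects for depth, Irak2 at 55.5 ± 12.6 CPM did not differ from Myd88 at 55.6 ± 4.68 CPM beyond their spread. By expected counts per kb of the leading coding transcript it was likewise the 5th in replicate 1 and the 3rd in replicate 2, at 279 ± 116 counts per kb. The deposited gene table gives Irak2 a length of 1339 and 1182 bases in the libraries, while its main coding transcript has 3196 bases. In the alignment-free table Irak2 was the highest, at 48.4 and 21.3 TPM. The low end of the order was steadier: by TPM, coding TPM, counts and counts per kb, Tirap was the last of the 10 in both libraries. In the alignment-free table Ticam1 was the last in replicate 1 and Tirap in replicate 2.

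Myd88, the adaptor shared by all Toll-like receptors but TLR3, was read as a pair of transcripts in steady proportion. Myd88 (ENSMUSG00000032508.8) lies on the minus strand at chr9:119335934-119341411 (mm10). The coding Myd88-201 held 16.0 and 14.4 TPM and the retained-intron Myd88-203 held 10.6 and 9.00 TPM in replicates 1 and 2. Myd88-203 thus took 39.1% ± 0.884 of the gene's TPM, 45.2% ± 0.996 of its counts and 38.7% ± 0.820 of its alignment-free TPM. It keeps intron 2 (389 bases, chr9:119338187-119338575) and intron 3 (160 bases, chr9:119337846-119338005) whole, both inside the coding region, and is otherwise spliced like Myd88-201. Intron 3, the shorter of the pair whose presence separates these transcripts, is printed with intron bases in capitals and 30 exon bases on each side in lower case, from GENCODE M21 transcripts on the minus strand, chr9:119337816-119338035.
Myd88-203: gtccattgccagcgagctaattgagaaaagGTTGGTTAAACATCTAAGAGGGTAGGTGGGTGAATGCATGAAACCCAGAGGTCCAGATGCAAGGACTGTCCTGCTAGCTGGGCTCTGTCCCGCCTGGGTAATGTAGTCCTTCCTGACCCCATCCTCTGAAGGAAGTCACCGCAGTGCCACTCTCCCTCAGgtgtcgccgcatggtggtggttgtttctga
Myd88-201: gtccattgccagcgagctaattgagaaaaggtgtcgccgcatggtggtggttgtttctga
The retained stretch starts with GT and ends with AG, the usual ends of an intron. Myd88 shares 223 exon bases with Acaa1a on the opposite strand, a peroxisomal thiolase gene at 24.2 and 20.1 TPM. Strand use in counting was not given in the sources used here.

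Of the other adaptors, Tirap and Ticam1 had no retained-intron transcript annotated. Tirap (ENSMUSG00000032041.15, minus strand, chr9:35184551-35200291), which docks Myd88 at the plasma membrane, had 139 and 120 counts. Its coding transcripts Tirap-201 and Tirap-203 share a coding length of 747 bases and differ at their ends. Tirap-201 took 37.8% and 62.3% of the gene's TPM in replicates 1 and 2, and Tirap-203 took 51.3% and 30.2%, so the leading transcript by TPM differed between the libraries. By expected counts Tirap-201 led in both, with 55.8% and 80.3% against 36.3% and 18.8% for Tirap-203. In the alignment-free table Tirap-201 led in both, with 84.3% and 82.6%. Tirap-201 shares 485 exon bases with Srpr and Gm39318 on the opposite strand. Ticam1 (ENSMUSG00000047123.8, minus strand, chr17:56269319-56276786), the sole adaptor of TLR3, had a single annotated transcript of 2992 bases with 234 and 306 counts. Ticam2 (ENSMUSG00000056130.10, minus strand, chr18:46557291-46574533), which bridges TLR4 to Ticam1, had 533 and 584 counts. Its coding Ticam2-201 held 68.0% and 73.0% of TPM and the retained-intron Ticam2-202 held 32.0% and 27.0%. Ticam2-202 runs 1588 bases into intron 2, which lies outside the coding region. Ticam2-201 shares 838 exon bases with Tmed7, a gene of vesicle transport on the same strand at 12.4 and 8.65 TPM, so reads there cannot be assigned by strand.

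Among the kinases, Irak4 acts first in the myddosome, Irak1 follows and Irak2 sustains the signal, while Irak3 lacks the catalytic activity of Irak4 and Irak1. Counts were 433 and 586 for Irak4 in replicates 1 and 2, and 350 and 339 for Irak3, beside those given above for Irak1 and Irak2. The share of TPM in coding transcripts was 79.8% ± 8.89 for Irak4, 46.0% ± 12.8 for Irak1, 48.0% ± 3.48 for Irak3 and 20.5% ± 5.23 for Irak2 (SD, n = 2). By counts, which do not weigh short transcripts more, the shares were 92.0% ± 4.12, 73.8% ± 9.14, 71.8% ± 1.24 and 56.8% ± 9.53 in the same order. On both scales Irak4 had the highest and Irak2 the lowest coding share of the 4 kinases in each library.

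**Figure D2:**
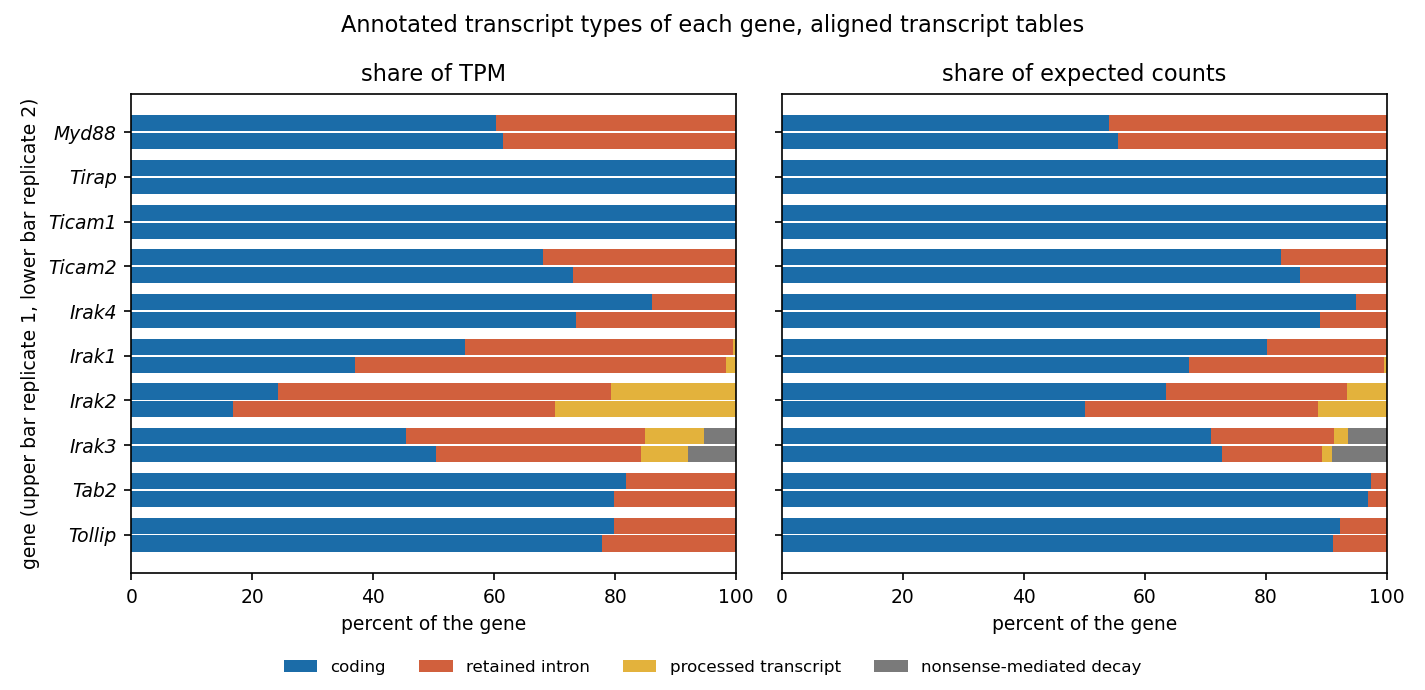
Percent of each gene's TPM (left) and of its expected counts (right) in transcripts annotated as coding, retained intron, processed transcript or nonsense-mediated decay, with replicate 1 above replicate 2 for each gene. Irak2 has the smallest coding part in the left panel, 24.2% and 16.8%, and Myd88 and Irak2 have the smallest in the right panel.

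Irak2 (ENSMUSG00000060477.14, plus strand, chr6:113638467-113695026) had much of its TPM in transcripts that reach into intron 3. Of 9 annotated transcripts, Irak2-208, Irak2-206 and Irak2-204 reach into this intron of 4352 bases (chr6:113665847-113670198), covering 163, 246 and 421 bases of it. Irak2-208, a retained-intron transcript of 631 bases that holds the first 3 exons, had 7.87 TPM in replicate 1 and 18.2 TPM in replicate 2. Irak2-206, a processed transcript whose first exon lies in the intron, had 6.94 and 13.2 TPM, and Irak2-204, which begins in the intron and runs on through the later exons, had 3.98 and 6.02 TPM. Each of the 3 had a higher TPM in replicate 2. Together they held 45.9% and 74.2% of the gene's TPM, 71.1% and 79.4% of its alignment-free TPM and 36.2% ± 13.7 of its counts. The coding Irak2-201 had 8.81 and 7.22 TPM, with 359 and 499 counts, the most of any Irak2 transcript in either library. Irak2-202, a coding transcript that skips exon 3 (144 bases), had 1.08 and 1.24 TPM, under the 10% of TPM used for naming, and is mentioned after its values were seen. The retained-intron Irak2-207, at the 3′ end of the gene, has 573 bases, of which 38 lie in intron 11. Irak2-207 went the other way, with 10.7 TPM (26.1% of the gene) in replicate 1 and 2.65 TPM (5.25%) in replicate 2. These values came from 52.3 and 23.7 counts. Its share of alignment-free TPM was smaller and moved less, at 6.42% and 3.32%.

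The boundaries of intron 3 are printed because transcripts that end or start within it held 60.1% ± 20.0 of the gene's TPM. Bases of the intron are in capitals and 30 exon bases are in lower case, from GENCODE M21 transcripts on the plus strand: the start of the intron at chr6:113665817-113665876 in Irak2-208, its end at chr6:113670169-113670228 in Irak2-204, and the spliced junction of exons 3 and 4 in the coding Irak2-201.
Irak2-208: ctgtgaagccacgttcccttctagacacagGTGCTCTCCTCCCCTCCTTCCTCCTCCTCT
Irak2-204: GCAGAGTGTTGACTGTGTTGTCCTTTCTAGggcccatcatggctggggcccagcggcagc
Irak2-201: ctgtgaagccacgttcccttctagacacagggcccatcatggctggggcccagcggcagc
Among 9150 detected protein-coding genes with more than 1 transcript, 4.70% had a lower coding share of TPM than Irak2, and 20.9% had a lower coding share of counts. The 95% Wilson interval of its coding share of counts ran from 59.8% to 67.3% in replicate 1, and in replicate 2 from 47.3% to 53.0%, for counting error only. The intervals leave out the uncertainty of dividing reads among transcripts. The part that unspliced Irak2 RNA has in these reads was not tested.

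**Figure D3:**
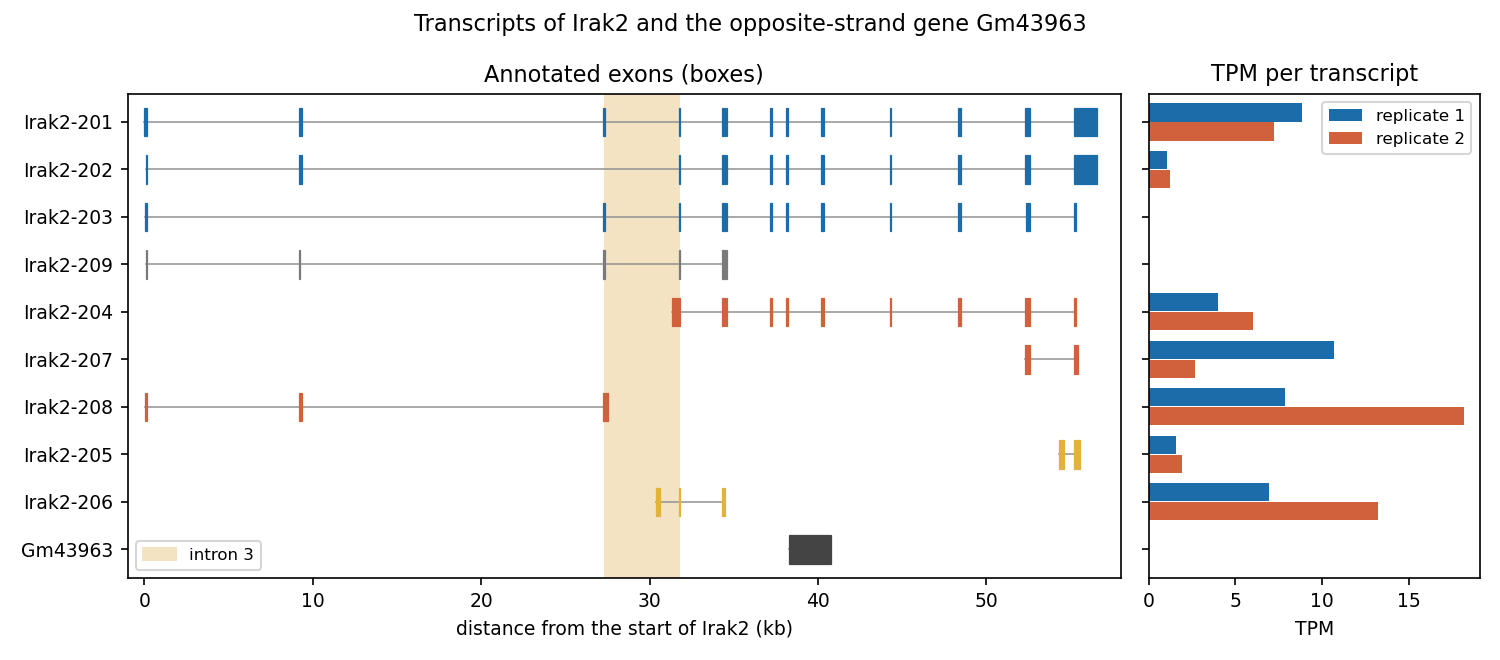
Left, exons (boxes) of the Irak2 transcripts and of the opposite-strand gene Gm43963 by distance in kb from the start of Irak2, coloured as coding (blue), retained intron (orange), processed transcript (yellow), nonsense-mediated decay (grey) or other (black), with intron 3 shaded. Right, TPM of each Irak2 transcript in replicates 1 and 2. In replicate 2 Irak2-208 and Irak2-206 exceed the coding Irak2-201, at 18.2 and 13.2 against 7.22 TPM.

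Irak1 (ENSMUSG00000031392.18, minus strand, chrX:74013914-74023918) divided its coding signal between near-identical transcripts. Irak1-206 had 595 and 619 counts and Irak1-204 had 382 and 253 counts in replicates 1 and 2, with posterior SDs of these counts between 117 and 130 in the deposited table. Inside the coding region they differ by 3 bases at the start of exon 5, printed here from chrX:74022632-74022878 on the minus strand with the extra bases in capitals and 30 exon bases on each side in lower case.
Irak1-206: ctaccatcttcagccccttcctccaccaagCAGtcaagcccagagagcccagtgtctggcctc
Irak1-204: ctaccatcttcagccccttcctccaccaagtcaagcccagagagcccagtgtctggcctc
Reads that do not span this point cannot tell them apart there. Together they held 70.9% ± 10.2 of the gene's counts, and 51.8% and 32.3% of its TPM. Of the retained-intron transcripts, Irak1-215, which keeps intron 5 (223 bases), had 5.01 and 6.37 TPM, and Irak1-218, which keeps introns 3 and 4 (113 and 184 bases), had 4.10 and 4.94 TPM. Both were higher in replicate 2, as the whole retained-intron class was, at 44.3% of the gene's TPM in replicate 1 and 61.3% in replicate 2. The microRNA genes Mir718 and Mir5132, which overlap Irak1 on the same strand, had 0 counts in both libraries. Given this overlap and a library size range of 250 to 400, those counts do not show whether the microRNAs were present. Mir718 shares 70 exon bases with Irak1-206, and Mir5132 shares 6 with it but 71 with Irak1-220 and Irak1-222.

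Irak3 (ENSMUSG00000020227.10, minus strand, chr10:120141648-120202130) and Irak4 (ENSMUSG00000059883.16, plus strand, chr15:94543643-94581815) each had a transcript that runs past a coding exon and ends within the next intron, and so did Tollip (ENSMUSG00000025139.14, minus strand, chr7:141874813-141918507). Irak3-204 follows the coding Irak3-201 through exon 8 and runs 117 bases into intron 8, Irak4-203 runs 262 bases into intron 6, and Tollip-205 runs 726 bases into intron 4, which has 1104, and also covers 89 bases of intron 1. Irak3-204 took 36.7% ± 3.89 of the gene's TPM and Irak3-201 took 48.0% ± 3.48, with 6.30 and 3.69 TPM for Irak3-201 in replicates 1 and 2. In the alignment-free table Irak3-204 led in both libraries, with 40.8% and 44.0%. Irak4-203 held 14.0% of the gene's TPM in replicate 1, the least of the 3 Irak4 transcripts, and 26.5% in replicate 2, where it came ahead of Irak4-202. The point where each transcript leaves the spliced path is printed, with 30 exon bases in lower case and the first 30 intron bases in capitals, from GENCODE M21 transcripts in the direction of the gene, at chr10:120165063-120165122, chr15:94556662-94556721 and chr7:141890672-141890731.
Irak3-204: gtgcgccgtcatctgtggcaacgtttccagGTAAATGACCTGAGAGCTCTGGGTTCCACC
Irak4-203: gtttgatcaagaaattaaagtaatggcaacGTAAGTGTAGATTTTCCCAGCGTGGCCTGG
Tollip-205: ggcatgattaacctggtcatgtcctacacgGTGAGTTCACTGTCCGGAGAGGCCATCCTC
Only introns inside the coding region were examined for their first bases, which leaves out Ticam2-202. All 9 such intron starts held by the named retained-intron transcripts, the 5 printed ones included, begin with GT, the usual start of an intron. The coding Irak4-201 held 56.3% and 48.5% of TPM and Irak4-202, which has another last exon, held 29.8% and 25.0%. Irak4-202 codes 1359 bases against 1377 in Irak4-201, and 395 bases of its last exon overlap the actin-binding gene Twf1 on the opposite strand, at 20.4 and 12.5 TPM.

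Tab2 (ENSMUSG00000015755.16, minus strand, chr10:7905653-7956230), which ties the kinase Tak1 to ubiquitin chains, and Tollip, which binds IRAK proteins and ubiquitin, had coding shares of 80.8% ± 1.40 and 78.9% ± 1.42 of TPM. Tab2-204 held 64.7% and 62.1% of the gene's TPM and 86.3% and 85.0% of its counts, with 1709 and 1745 counts. The shorter coding Tab2-201 held 12.8% and 13.0% of TPM, and Tab2-203, which covers 373 bases of intron 5, held 10.2% and 10.4%. All 3 shares moved by less than 3 percentage points between the libraries. Tollip-201 held 73.0% and 70.4% of TPM and Tollip-205 held 20.1% and 22.1%, with 871 and 897 counts for Tollip-201. Neither gene shares exon bases with another gene.

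Across the 10 genes, the median share of TPM in coding transcripts was 73.6% ± 0.499. For the 9 with more than 1 transcript it was 70.5% ± 3.51, beside 69.1% ± 0.785 for 9150 detected protein-coding genes of that kind. The retained-intron share of the 8 genes with such a transcript was 33.1% ± 3.71, beside 29.6% ± 0.184 for 6244 such genes. By counts these medians were 84.1% ± 2.18 beside 85.1% ± 0.497 for coding transcripts, and 17.0% ± 2.17 beside 17.2% ± 0.0278 for retained-intron transcripts. Each of these 4 medians differed from that of the detected genes by less than its own SD between the libraries. In the alignment-free table the gaps exceeded that SD: the coding share was 65.0% ± 2.34 beside 57.2% ± 1.80, and the retained-intron share 36.9% ± 1.58 beside 34.0% ± 1.13. An SD between libraries does not measure the spread between genes, whose mean coding shares there ran from 9.17% for Irak2 to 100% for Tirap. Whether these genes differ as a set from the detected genes was not tested. By the mean over the libraries, the same transcript led a gene's TPM in both transcript tables for 8 of 10, the exceptions being Irak1 and Irak3. In replicate 1 alone Tirap and Irak2 were exceptions too: Tirap-203 and Irak2-207 led by TPM, and Tirap-201 and Irak2-208 in the alignment-free table.

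Replicate 2 was then set against replicate 1, as a description of these libraries with no test. Over 14584 genes that reached 10 counts in each library, the log2 ratio (replicate 2 over replicate 1, on TPM + 1) had a median of -0.42, and the values below are relative to it. Of the 10 genes, none lay past 2-fold either way (0 higher and 0 lower in replicate 2), beside 178 genes (1.22%) and 71 genes (0.487%) of those 14584. Their median was -0.040, with 5 of 10 above 0. Irak2 was the highest at 0.72, and 3.58% of the countable genes were higher. Irak4 was at 0.25, Myd88 at 0.25, Irak1 at 0.19 and Ticam1 at 0.11. Tollip was at -0.21, Ticam2 at -0.19, Tab2 at -0.23, Tirap at -0.38 and Irak3 at -0.41, with 8.81% of genes lower than Irak3. For Irak1, Ticam1 and Irak3 the sign was not the same under every scaling and table tried, whereas Irak2 stayed between 0.20 and 0.84. In the alignment-free table Irak2 was not the highest, at 0.20 against 0.36 for Ticam1.

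**Figure D4:**
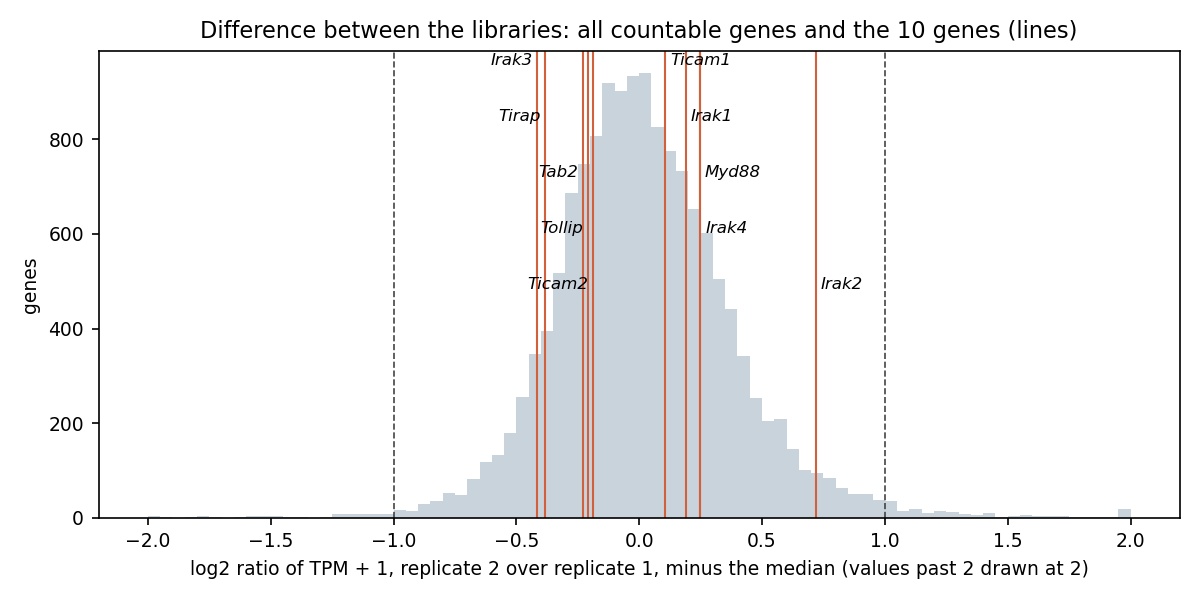
Histogram of the log2 ratio of replicate 2 to replicate 1 on TPM + 1, minus its median, for the 14584 genes that reached 10 counts in each library, with a line for each of the 10 genes and dashed lines at a 2-fold difference. All 10 lines lie between the dashed lines, from Irak3 at -0.41 to Irak2 at 0.72.

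The rest of the pathway was read from lists of receptors, of genes downstream of Myd88 or Ticam1 and of other regulators. Of the receptors and co-receptors, 13 of 16 were detected. Cd14, which hands lipopolysaccharide to TLR4, had 432 ± 64.4 TPM and Tlr2, the receptor of bacterial lipoproteins, 95.9 ± 15.9 TPM. The lowest were the interleukin-1 and interleukin-18 receptor genes, Il1r1 at 0.195 ± 0.106 TPM from 17 and 15 counts and Il18r1 at 0.0650 ± 0.0495 TPM from 4 and 1 counts in replicates 1 and 2. Thus 6 of these 16 lay above Irak2 and 4 below Tirap by mean TPM. Of the 6, only Cd14 and Tlr2 were above Irak2 by TPM in both libraries. In replicate 2, Tlr1 at 49.3, Tlr7 at 47.6, Tlr8 at 41.1 and Tlr13 at 38.2 TPM lay below Irak2 at 50.4 TPM. Their order relative to Irak2 is thus not resolved by TPM. By expected counts each of them lay above Irak2 in both libraries, the lowest being Tlr1 with 1227 and 1872 against 629 and 1155. The genes described here lay within a narrower range than the receptors that use them.

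All 10 genes downstream of Myd88 were detected. Irf5, a transcription factor that binds Myd88, had 53.6 ± 6.31 TPM and the kinase gene Ikbkb 51.8 ± 8.25 TPM. Of the partners of Tak1 other than Tab2, Tab3, a relative of Tab2, was the lowest of the list in each library at 3.56 ± 0.962 TPM. Tab1 at 10.1 ± 2.64 TPM and Traf6 at 10.3 ± 3.92 TPM came next and did not differ beyond their spread. Tab2 lay above both in each library, with 29.2 TPM in its lower library against 12.0 TPM for Tab1 and 4.24 TPM for Tab3 in their higher. Downstream of Ticam1, 9 of 9 were detected. The kinase gene Ikbke had 185 ± 18.7 TPM and Irf3 91.8 ± 18.1 TPM, while the death-domain adaptor genes Tradd and Fadd had 5.36 ± 0.997 and 1.38 ± 0.163 TPM. Ticam1 itself, at 5.46 ± 0.997 TPM, did not differ from Tradd beyond their spread.

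Of the other regulators, 7 of 9 were detected. The ubiquitin-editing enzyme gene Tnfaip3, an early NF-kB target, had 479.9 ± 20.4 TPM, and Pik3ap1 (BCAP), a TIR-domain adaptor, had 127 ± 29.9 TPM. Sigirr, an inhibitory receptor, had 0.390 TPM in each library from 9 and 12 counts, and Sarm1, another TIR-domain adaptor, had 0.110 ± 0.0424 TPM from 9 and 2 counts. So of the TIR-domain adaptors other than the 4 described here, Pik3ap1 stood above all of them and Sarm1 below all of them in both libraries. Median log2(TPM + 1) was 3.66 ± 0.54 for the receptors, 4.17 ± 0.49 downstream of Myd88, 5.20 ± 0.16 downstream of Ticam1 and 4.17 ± 0.33 for the other regulators, beside 4.04 ± 0.34 for the 10 genes.

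**Figure D5:**
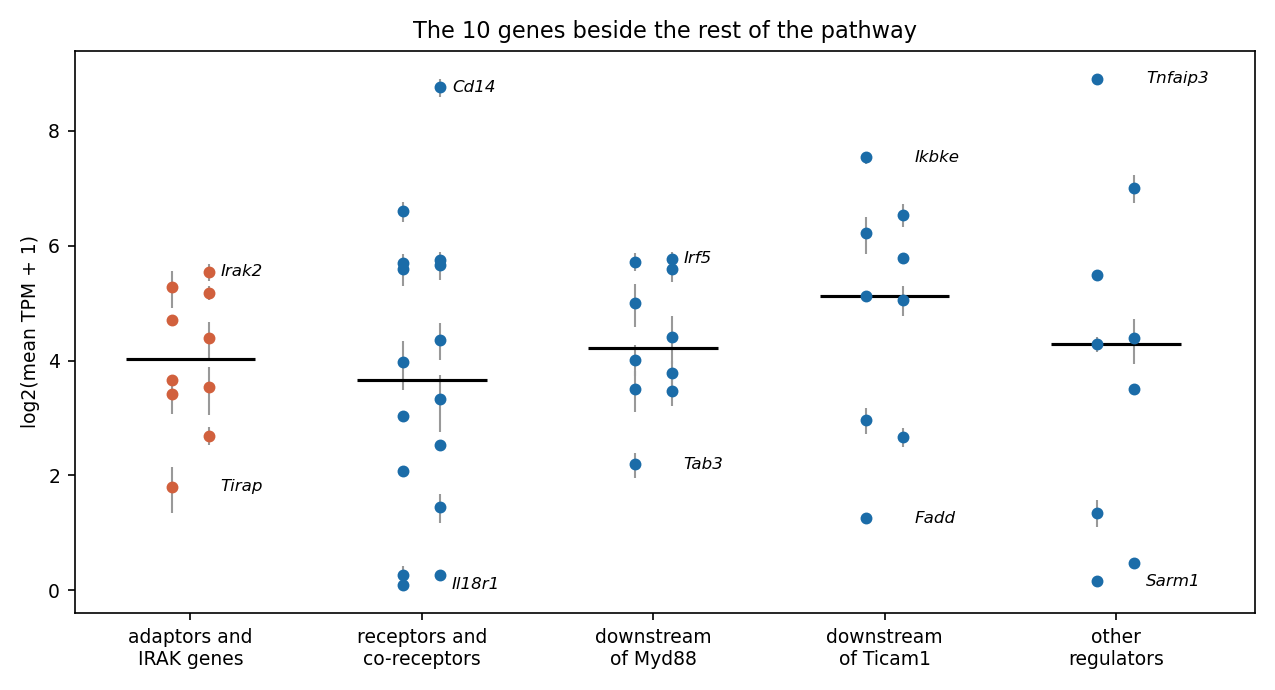
Log2(mean TPM + 1) of each gene in the list of 10 (orange) and in 4 lists of the pathway (blue), with grey lines from the lower to the higher library and black bars at the median of the plotted values. The 10 genes lie between Tirap at 2.48 TPM and Irak2 at 45.7 TPM, while the receptors run from Il18r1 at 0.0650 TPM to Cd14 at 432 TPM.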

How the data were processed

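Ribosomal RNA-depleted total RNA of 2 libraries was analysed from the authors' deposited tables. Per the deposited readme, the authors quantified transcriptome alignments on mm10 with the GENCODE M21 annotation, which gave expected counts and TPM per gene and per transcript, and for every transcript its percent of the gene. The authors also deposited a transcript table of estimated counts and TPM from reads and an index alone, per the same readme, and its TPM was summed per gene. Quantifier names and strand use were not given in the sources used here, and the columns carry RSEM's and kallisto's names. The posterior SD of a count is a column of the deposited transcript table.

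Types, coordinates and sequences came from GENCODE M21 (mm10), and protein sequences were not used here. The 26345 rows of the gene table that name no annotated gene held 0.350% and 0.0785% of counts in replicates 1 and 2 and stayed out of library totals. TPM was used as deposited. A gene counted as detected at 1 TPM or more in both libraries, and a pseudocount of 1 TPM was used on the log2 scale. Per-transcript shares are sums over transcripts of one annotated type divided by the gene. Intervals are 95% Wilson intervals and, like the allowance of 3 counts for a count of 0, cover only counting error, as reads lacking molecular identifiers are not independent molecules. TMM factors (edgeR 4.0.16) and size factors (DESeq2 1.42.0, R 4.3.3) were computed on expected counts rounded to whole numbers, as alternative scalings only. The other steps used Python 3.11.15 with pandas 2.3.3. The counting of genes past a 2-fold difference was also run on simulated counts, with changes planted only in well-counted genes. The spread of those counts was set in advance and not taken from these libraries. That run checks the counting step and not the shares of genes found past 2-fold here.

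Both libraries form 1 group, so values are described and no p-value was computed. The genes and lists were chosen with earlier results of these data known. All 10 genes are named. From each pathway list the 2 genes with the highest and the 2 with the lowest mean TPM are named, as are transcripts with a mean of at least 10% of a gene's TPM. Other genes and transcripts named were chosen after their values were seen. Genes of like pattern were not sought, since 2 libraries of 1 group give no pattern. The alternatives tried were other minimums, a pseudocount of 0.1 TPM, the alignment-free table, CPM, TPM rescaled to leave out genes of the mitochondrion and those under 200 bases, means, shares of counts, other scalings and each library alone.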

Additional observations from a re-analysis of the deposited data

How the results depend on the processing

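All 10 genes had at least 1 TPM in each library alone and at least 10 counts in both libraries. With a minimum of 5 TPM, 8 passed. The alignment-free table also gave 8, or 10 when rescaled without mitochondrial genes and genes under 200 bases, an alternative chosen after seeing the data. The median log2 level of 4.04 was 2.72 in the alignment-free table (3.85 rescaled), 4.54 in rescaled TPM and 5.46 in CPM, which ignores length, and 3.80 to 4.28 with a library left out. The median coding share of 73.6% was 66.9% in the alignment-free table, 87.3% by counts and 70.5% over the 9 genes with more than 1 transcript, a set chosen after seeing the data. With a library left out it was 73.2% to 73.9%. The median retained-intron share of 33.1% was 36.9% in the alignment-free table, 17.0% by counts and 30.5% to 35.7% with a library left out. Counts weigh a long transcript more than TPM does. The median difference between the libraries, -0.040, was -0.21 with no minimum count, where the centre is taken over more genes, and lay between -0.027 and 0.022 under the other alternatives. The rank of Irak2, checked after its value was seen, was 1 by TPM and in the alignment-free table, 4 by the mean of expected counts and 4 by that of counts per kb of the coding transcript, neither scaled for depth (5 in replicate 1 and 3 in replicate 2 on both), 6 by coding TPM, and 1 to 2 with a library left out. Among single genes, 18 of 40 levels, 13 of 40 coding shares and 23 of 50 library differences moved by more than the spread or counting error allowed. The cause of these shifts was not tested. The 40 checks of levels and the 40 of coding shares include those with a library left out. With 2 libraries, the value of either always lies within the SD of their mean, so those checks could not move. The coding shares of Tirap and Ticam1, whose annotated transcripts are all coding, could not move either. These fractions thus understate how often the remaining checks moved. No paired analysis was possible because both libraries form 1 group. Depth limits the genes with the fewest counts, Tirap at 139 and 120 and, in the wider lists, Il18r1 and Sarm1.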

Other observations

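Gm43963, a gene of the annotation class TEC, which awaits experimental evidence, lies on the opposite strand within Irak2 (chr6:113676732-113679219, mm10), over introns 8 and 9 and the whole of exon 9, and shares 196 exon bases with Irak2-201. It had 388 and 837 expected counts in replicates 1 and 2, beside 629 and 1155 for Irak2. With strand use in counting not given in the sources used here, reads of Irak2 and Gm43963 in this stretch cannot be told apart. Gm43963 was chosen after its values were seen.

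The lowest receptors differed between the tables. Il18r1, a subunit of the interleukin-18 receptor, had 0.10 TPM in the gene table and 3.37 TPM in the alignment-free table in replicate 1. Sigirr had 0.390 and 1.53 TPM there. In the same library Irak2 had 40.9 TPM in the gene table and 48.4 TPM in the alignment-free table, while the other genes of the list of 10 apart from Tirap, at 3.42 and 3.80 TPM, were lower in the alignment-free table. In replicate 2 Il18r1 was again higher in the alignment-free table, at 0.784 TPM against 0.030 in the gene table, while Sigirr at 0.284 TPM there and all of the 10 genes, Irak2 at 21.3 and Tirap at 0.832 TPM included, were lower. For replicate 1, alignment-free TPM divided by gene-table TPM had a median of 0.667, and for replicate 2 of 0.251, across the genes that reached 10 expected counts in each library.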
